A study of Mus musculus with 20 samples.

Results

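The genes described here are those of the cytosolic ribosome's proteins in a mouse salivary gland cell line, SIMS, with and without the RNA decay factor ZCCHC8. They were chosen by name: every protein-coding gene of GENCODE M21 whose symbol starts with Rpl or Rps and a digit. That rule took 98 of the 55471 genes counted. Of these, 43 encode proteins of the large subunit and 30 proteins of the small subunit, together called the 73 core genes here. A further 8 are close relatives of a core gene (Rpl3l, Rpl7l1, Rpl10l, Rpl22l1, Rpl36al, Rpl39l, Rps27l and Rps27rt), and 6 carry a name ending in -ps, as given to processed copies. The remaining 11 are no ribosomal proteins: 10 encode S6 kinases and Rps19bp1 encodes a nucleolar protein that binds RPS19. They are counted apart, which leaves 87 ribosomal protein genes. Neither the choice of genes nor their grouping used a measured value, though earlier results of these data were known.

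The cytosolic ribosome joins a large subunit, where peptide bonds are made, to a small subunit, which reads the messenger RNA. Its proteins are made in near-equal amounts from single genes, whose messages share a start of pyrimidines (the TOP motif) through which growth signals set their translation together. Many ribosomal protein genes carry small nucleolar RNAs (snoRNAs) in their introns, and most have left processed copies elsewhere in the genome. ZCCHC8 holds together NEXT, the nuclear exosome targeting complex, which feeds short nuclear RNAs to the exosome for decay. Among its substrates are promoter upstream transcripts (PROMPTs), made mostly in the reverse direction from active promoters.

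The libraries were of total RNA from SIMS cells grown in DMEM with 10% FBS, in 5 groups of 4: unedited wild type, a Btbd7 KO line and 3 Zcchc8 KO clones (clones 1, 2 and 3), the KO lines made with CRISPR/Cas9. The Btbd7 KO was the negative control. Each Zcchc8 KO group is 1 clone, so a difference between clones cannot be told apart from a difference in the editing. The labels do not say whether the 4 libraries of a group came from separate cultures, so p-values measure the spread between these libraries, which may be technical. Genes were counted in all 20 libraries. PROMPT regions, named by the gene at whose promoter they lie, were counted in 19, without wild-type replicate 1. Values are counts scaled by the total in genes, as CPM, and differences are log2 fold changes with their standard error, called at an adjusted p under 0.05 over all genes or regions tested.

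A library held between 6833258 and 17771804 gene counts, with all 4 libraries of clone 1 at 6833258 to 7683444 and wild type at 13876944 to 17771804. Zcchc8 itself was at 65.1 ± 2.92 CPM in wild type (SD, n = 4), 60.3 ± 4.29 in clone 1, 23.3 ± 1.35 in clone 2 and 54.6 ± 4.84 in clone 3. It was called lower in clones 2 and 3 but not in clone 1 (log2 fold change -0.11, adjusted p = 0.291), and counts over a whole gene do not show whether a frame is broken. Btbd7 fell from 202 ± 7.64 to 99.2 ± 3.23 CPM in its own KO. The 10 salivary epithelial markers summed to 3860 to 5630 CPM in wild type, 4850 to 4990 in Btbd7 KO and 3410 to 4440 in the Zcchc8 KO clones. For the mean of the clones, 5 of 9 tested were lower and 0 higher, where 19.9% of all genes tested were lower and 16.2% higher. The 8 fibroblast markers summed to 11.4 to 18.5 CPM in wild type, 22.5 to 35.2 in Btbd7 KO, 10.2 to 14.2 in clone 1, 24.4 to 28.2 in clone 2 and 22.2 to 26.3 in clone 3, with Lum and Thy1 at 0 in every library. The 8 endothelial and blood cell markers summed to 4.87 to 6.19 CPM in wild type, 5.44 to 6.82 in Btbd7 KO, 8.07 to 14.5 in clone 1, 9.4 to 11.4 in clone 2 and 4.5 to 6.88 in clone 3, with Hbb-bs at 0. Fibroblast markers were thus above wild type in Btbd7 KO and clones 2 and 3, and the other list in clones 1 and 2, with no overlap. Their part in the results below was not tested. Wild-type replicate 1 stood apart: over the 80 ribosomal protein genes tested, its median deviation from the mean of the other 19 libraries was -0.36 on the log2 scale, against -0.24 to 0.21 in those 19. The same mean served all libraries, so it holds each of the 19 and leaves out wild-type replicate 1. It was the lowest of the 20 libraries for 41 of the 80 genes and the highest for 8. Gene results are therefore given with and without it, and the PROMPT results do not contain it.

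**Figure D1:**
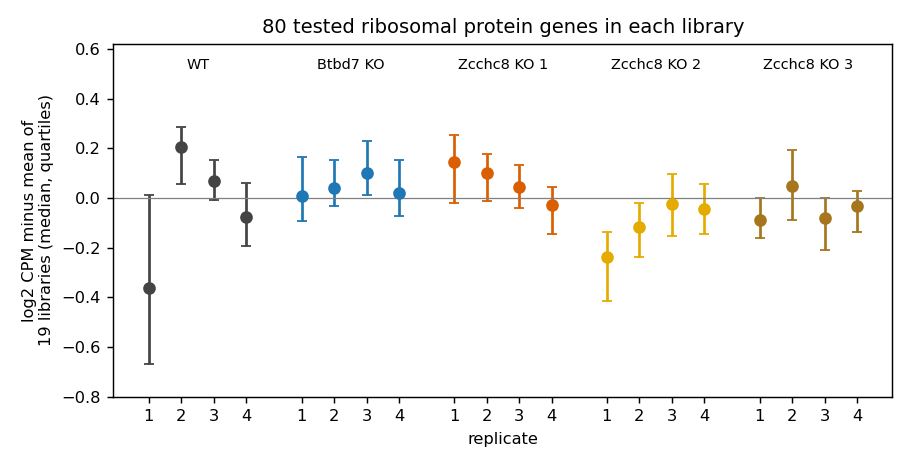
Deviation of the 80 tested ribosomal protein genes in each of the 20 libraries, as log2 CPM minus the mean of the 19 libraries other than wild-type replicate 1. Points are medians and bars run between the quartiles over genes, and the median of wild-type replicate 1, at -0.36, is the lowest.

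A start site is where a PROMPT and its gene part. RefSeq (GRCm38.p6) gave a promoter for 71 of the 98 genes, 54 of them core. The stretches below run from 150 bases before to 15 bases after the RefSeq start, 5′ to 3′ on the strand of the gene. They show the 3 genes with the largest PROMPT difference (Rpl36a, Rps6 and Rps23), a gene with a large difference from a measurable wild-type level (Rpl28), and one whose PROMPT differed little (Rps28). Capitals mark 4 motifs searched on both strands: CTTTC and, with a further T, CTTTTC, both pyrimidine runs as found at the start of ribosomal protein messages, then CGGAAG, the core of an ETS factor site, and finally TATAAA, the TATA box. The positions were Rpl36a at chrX:134585504-134585668 on the plus strand, Rps6 at chr4:86857353-86857517 on the minus strand, Rps23 at chr13:90922972-90923136 on the plus strand, Rpl28 at chr7:4792815-4792979 on the plus strand and Rps28 at chr17:33824548-33824712 on the minus strand.
Rpl36a: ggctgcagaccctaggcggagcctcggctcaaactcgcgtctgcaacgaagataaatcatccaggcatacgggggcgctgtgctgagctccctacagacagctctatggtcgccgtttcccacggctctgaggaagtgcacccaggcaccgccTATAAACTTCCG
Rps6: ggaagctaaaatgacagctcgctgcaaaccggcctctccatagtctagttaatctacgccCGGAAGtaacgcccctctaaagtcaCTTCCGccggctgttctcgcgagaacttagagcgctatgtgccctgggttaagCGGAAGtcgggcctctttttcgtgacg
Rps23: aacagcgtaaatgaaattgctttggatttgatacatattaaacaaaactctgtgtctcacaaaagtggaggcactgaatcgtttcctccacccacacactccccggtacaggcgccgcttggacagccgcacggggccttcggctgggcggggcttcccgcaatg
Rpl28: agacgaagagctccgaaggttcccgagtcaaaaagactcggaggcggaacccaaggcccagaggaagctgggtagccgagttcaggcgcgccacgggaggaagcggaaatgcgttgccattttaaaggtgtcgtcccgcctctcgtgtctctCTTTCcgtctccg
Rps28: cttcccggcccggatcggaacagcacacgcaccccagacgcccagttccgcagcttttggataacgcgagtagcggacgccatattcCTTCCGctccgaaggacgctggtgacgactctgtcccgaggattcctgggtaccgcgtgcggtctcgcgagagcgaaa
Rps6 held CGGAAG on both strands, Rps28 held it on the reverse strand, Rpl28 held CTTTC just after its start, Rpl36a held TATAAA running into CGGAAG of the reverse strand after its start, and Rps23 held none of the 4 motifs in this window. Over the 54 core promoters, CTTTC stood on the gene's strand between 20 bases before and 30 bases after the start in 17 (31.5%), against 5.19% of the 9031 protein-coding genes tested that had a promoter. CTTTTC, which does not contain CTTTC, stood there in 4 (7.41% against 1.34%). In the full 300 bases, CGGAAG was present on either strand in 38 core promoters (70.4% against 34.1%) and TATAAA in 4 (7.41% against 6.39%). A match is a description of the letters only.

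PROMPT regions of ribosomal protein genes were higher in the Zcchc8 KO clones than in wild type and showed almost no difference in Btbd7 KO. Of the 87 regions, 55 had enough counts to be tested, 32 fell below the filter, and 3 of those had no count in any library. For the mean of the 3 clones, 32 of the 55 were called higher and 1 lower, where 39.2% of all 17617 regions tested were called higher and 3.85% lower. The median log2 fold change was 1.20, against 0.43 over all regions and 1.21 over the 9294 regions of protein-coding genes, of which 5329 were called higher. The share called among ribosomal protein genes (58.2%) was thus near that of protein-coding genes (57.3%). Clone 1 had 32 higher and 0 lower (38.7% and 4.22% of all regions), clone 2 had 28 and 2 (35.1% and 3.51%), and clone 3 had 27 and 0 (36.4% and 2.55%). Against wild type, Btbd7 KO had 1 higher, Rpl36al (0.42), and 0 lower (1.23% and 1.75%). With the counts summed per line, so that the lines are the replicates (wild type and Btbd7 KO against the 3 clones), 33 were higher and 1 lower. With the Btbd7 KO as control in place of wild type, 31 were higher and 3 lower (45.1% and 6.0%). These values use the library sizes of the gene table. When the PROMPT table was scaled on itself, this shifted the median of all regions by -0.41, and left 26 ribosomal protein regions higher and 9 lower. For this scaling and for the counts summed per line, the shares called over all regions are not reported here.

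In both subunits the called regions pointed upward, with 1 exception. Of 28 large subunit regions tested, 16 were higher and 1 lower, with a median of 1.07. Of 21 small subunit regions, 13 were higher and 0 lower, with a median of 1.94. The relatives had 3 of 5 higher. In the mean and in each clone alike, 24 regions were called higher and 0 lower, against 28.4% and 0.596% of all regions. The latter are regions of all types of gene, among which those of protein-coding genes were called higher more often for the mean.

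Rpl36a, on the X chromosome, encodes a large subunit protein and had the largest fitted difference. Its region held 0 counts in all 3 wild-type libraries and 0, 6, 1 and 3 counts in Btbd7 KO. It held 13, 6, 16 and 10 counts in clone 1, 8, 17, 34 and 12 in clone 2, and 26, 7, 16 and 21 in clone 3. Every Zcchc8 KO library was above every wild-type library, and 1 clone 1 library equalled the highest Btbd7 KO library in counts. Set against a floor of 3 counts per library (0.191 CPM), the mean of 1.45 CPM over the clones was at least 7.57-fold higher.

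Rps6, the small subunit protein that S6 kinases phosphorylate, had the next largest difference. Its PROMPT was at 0.231, 0.0748 and 0.0586 CPM in wild type and 0.422, 0.266, 0.496 and 0.760 in Btbd7 KO. It was at 3.13, 2.84, 4.05 and 3.18 CPM in clone 1, 3.98, 2.49, 3.02 and 1.87 in clone 2, and 3.42, 2.51, 2.93 and 3.61 in clone 3. The clones overlapped each other and lay clear of both control groups, at a log2 fold change of 4.51 ± 0.50 (SE, adjusted p = 1.62e-11). The wild-type values rest on 4, 1 and 1 counts. The difference between Btbd7 KO and wild type did not pass the test (1.83, adjusted p = 0.113).

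The ubiquitin fusion gene Rps27a gave the most precise of the large differences. Its PROMPT was at 1.33, 0.748 and 2.05 CPM in wild type and 1.33, 1.59, 1.99 and 1.18 in Btbd7 KO. It was at 20.7, 21.5, 20.3 and 20.6 CPM in clone 1, 15.9, 15.3, 15.3 and 18.2 in clone 2, and 16.3, 17.2, 15.4 and 19.2 in clone 3. Both control groups overlapped, and the lowest clone library lay far above them, at 3.65 ± 0.19 (adjusted p = 9.6e-25). The gene Clhc1 overlaps the upstream side on the opposite strand, and the strand setting of the counts is not given in the sources used here, so its reads cannot be told apart from PROMPT reads. Rpl28, a large subunit protein, showed a similar gap: 0.868, 2.39 and 2.64 CPM in wild type, 1.01 to 2.85 in Btbd7 KO, 17.7 to 20.6 in clone 1, 10.7 to 16.0 in clone 2 and 11.1 to 16.4 in clone 3. That made 2.99 ± 0.22 (adjusted p = 8.79e-19), again with no overlap between clones and controls. Rpl28 was chosen after its values were seen.

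Rpl30, a large subunit protein, reached 3.62 ± 0.38 (adjusted p = 2.9e-12) and Rps23, a protein of the decoding centre, 3.66 ± 0.80 (adjusted p = 0.000113). The Rps23 value is loose, since wild type held 4, 0 and 0 counts, and it ran from 3.11 to 6.77 as single libraries were left out. At the other end of the regions called in each clone were 3 large subunit genes. Rpl5, which carries 5S ribosomal RNA, had 1.32 ± 0.32 (adjusted p = 0.000526) and Rpl37 had 1.54 ± 0.39 (adjusted p = 0.000819).

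Rpl35, which sits at the exit of the peptide tunnel, had the smallest of these differences and the most even control level. Its region was at 7.0, 5.98 and 6.63 CPM in wild type and 6.75, 6.04, 7.69 and 5.74 in Btbd7 KO. It was at 20.7, 21.1, 18.7 and 24.2 CPM in clone 1, 9.46, 10.8, 12.8 and 11.8 in clone 2, and 14.6, 12.1, 15.8 and 14.4 in clone 3. All 12 clone libraries were above all 7 controls, and clone 1 did not overlap clones 2 and 3. The mean difference was 1.20 ± 0.14 (adjusted p = 1.36e-10). Clones 1, 2 and 3 were at 1.69, 0.79 and 1.12, and the test that they are equal gave an adjusted p of 1.35e-05. In all, 4 of the 55 regions differed between clones (Rpl3, Rpl29, Rpl35 and Rps14), against 10.9% of all regions. The Rpl35 gene itself also differed between clones, in the same order of clone 1 above the others, as given below.

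Other regions differed little from wild type. Rps28, a small subunit protein gene, starts 10 bases from the gene Ndufa7 on the opposite strand. Its region was at 17.2, 13.4 and 13.7 CPM in wild type, 14.02 to 16.5 in Btbd7 KO and 15.4 to 21.2 over the clones, which overlap. The difference of 0.33 ± 0.12 passed the test (adjusted p = 0.0208), though in no single clone. The Rps15a region was at 46.3, 67.4 and 75.4 CPM in wild type, 54.6 to 73.4 in Btbd7 KO and 39.98 to 65.7 over the clones, with no call for the mean (-0.22, adjusted p = 0.0788). Arl6ip1 lies 2703 bases upstream of Rps15a on the same strand. The 1 region called lower was that of Rpl15, at 2.78, 2.17 and 4.28 CPM in wild type and 0.724 to 2.74 over the clones (-0.73 ± 0.29, adjusted p = 0.0379). These groups overlap.

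Whether a neighbour lies upstream went with the size of the difference. Of the 34 ribosomal protein genes with no other gene within 5 kb upstream, 13 regions were tested and 12 called higher, with a median of 2.57. Of the 53 with such a gene, 42 were tested, 20 called higher and 1 lower, with a median of 0.62. Protein-coding genes as a whole showed the same split, with medians of 2.47 over 3301 regions and 0.50 over 5993. The share of genes with an upstream neighbour was 63.0% of the core genes and 54.7% of the protein-coding genes tested. What part the neighbours' own reads have in these counts was not tested.

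**Figure D2:**
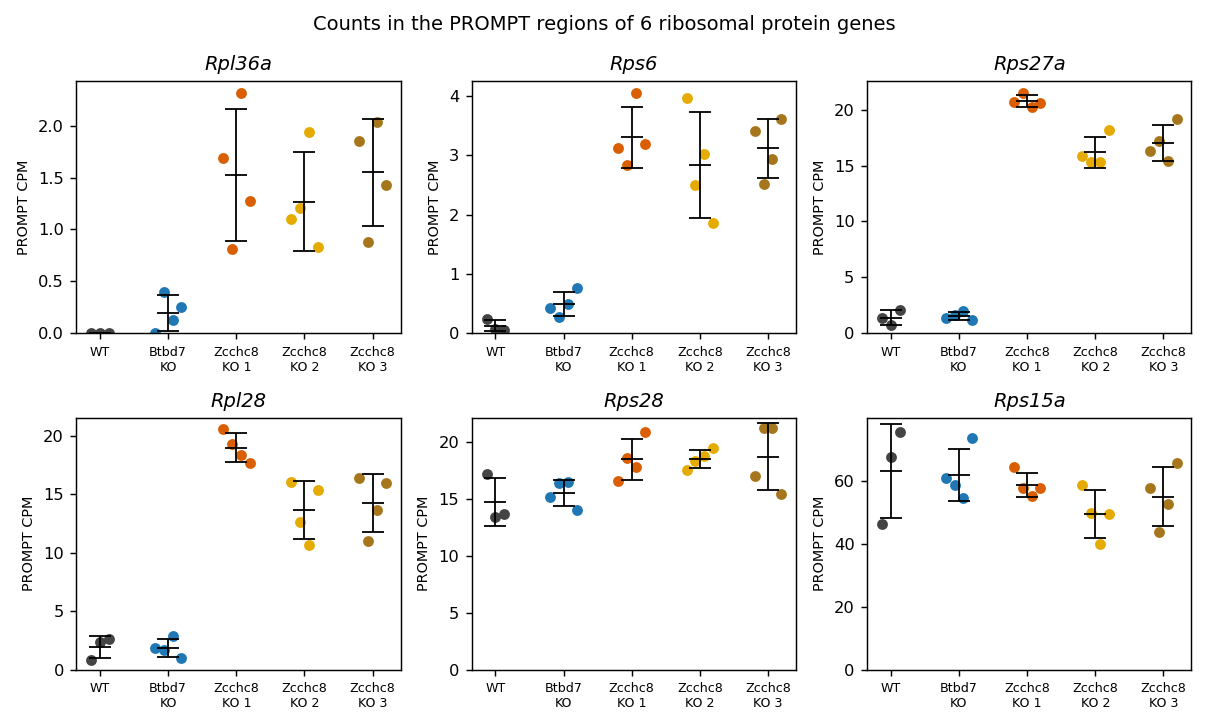
PROMPT level (CPM) of 6 ribosomal protein genes in each of the 19 libraries, by group, with bars for the mean ± SD. In Rpl36a, Rps6, Rps27a and Rpl28 every Zcchc8 KO library lies above every wild-type library, whereas Rps28 and Rps15a overlap.

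The genes themselves changed far less than their PROMPTs. Summed over the ribosomal protein genes, there were 2.02 ± 0.16 PROMPT counts per 100 gene counts in wild type (SD, n = 3) and 2.24 ± 0.04 in Btbd7 KO (n = 4). Clone 1 had 2.95 ± 0.12, clone 2 had 2.85 ± 0.31 and clone 3 had 2.88 ± 0.19. A large part of each PROMPT sum lay in the regions of Rpl36al and Rps15a, neither of them called for the mean of the clones. In wild-type replicate 2 they held 1477 and 800 of 4686 PROMPT counts. The Rpl36al gene itself held 2 to 25 counts per library. Per gene, the PROMPT to gene ratio was tested for 54 and was higher in 35 for the mean of the clones, with 0 lower (46.0% and 8.49% of the 11501 genes tested). Its median difference was 1.73, against 0.71 over all genes. These backgrounds hold genes of all types, and the ratio of protein-coding genes alone was not set beside them. In Btbd7 KO 1 ratio was higher, that of Rps6, and 0 lower (0.652% and 0.417% of all). Of the 32 regions called higher, 25 belonged to a gene that was not called in the gene table, 6 to a gene called lower and 1 to a gene called higher, Rpl5. Of all genes tested, 19.9% were called lower and 16.2% higher for the mean of the clones. Among the 6 were Rpl7l1, Rpl22l1, Rps3a1, Rps27 and Rps27l.

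**Figure D3:**
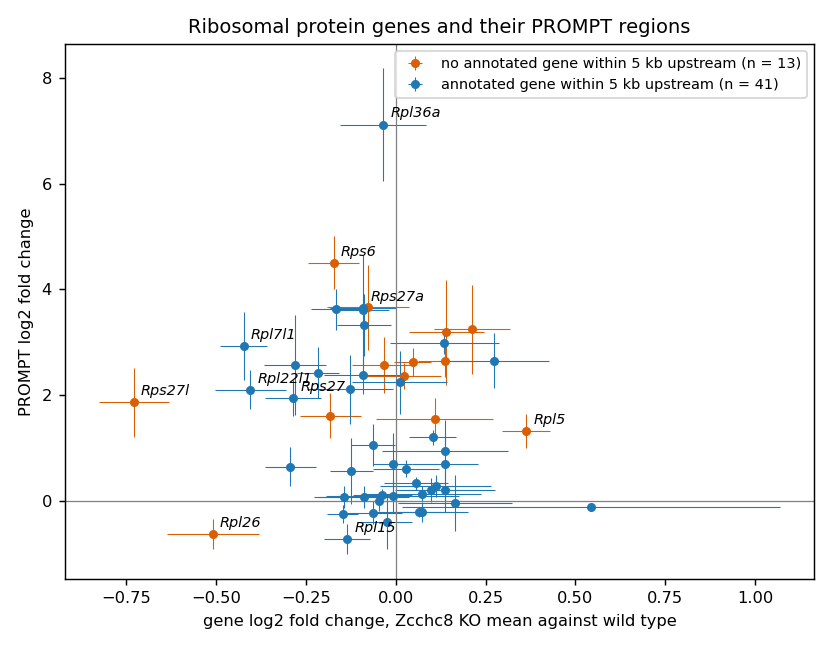
Log2 fold change of the PROMPT region (y axis) against that of its gene (x axis), with bars of 1 SE, for 54 ribosomal protein genes tested in both tables, mean of the Zcchc8 KO clones against wild type. Colours separate the 13 genes with no other gene within 5 kb upstream from the 41 with one, and the PROMPT axis spans far more than the gene axis.

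Ribosomal protein genes took 1.29 ± 0.15% of all counts in wild type (SD, n = 4, 1.09 to 1.44%), 1.35 ± 0.03% in Btbd7 KO, 1.42 ± 0.05% in clone 1, 1.26 ± 0.09% in clone 2 and 1.31 ± 0.06% in clone 3. The means of all 3 clones lay within the range of the 4 wild-type libraries. Wild-type replicate 1 was its low end: the other 3 ran from 1.264 to 1.436%, and the clone 2 mean of 1.262% lay just below them. Per length, in TPM (counts per base of exon, scaled to the same sum in each library), genes with high wild-type levels included Rps15 (1787 ± 219, SD, n = 4), Rpl4 (1335 ± 346) and Rps3a1 (1239 ± 282). Each of these genes overlaps the next in this order across the wild-type libraries. Wild-type replicate 1 was the lowest of the 4 libraries for each of these genes. The lowest core gene was Rpl24, at 4.54 ± 1.41 TPM. How reads shared with processed copies were counted is not given in the sources used here, so a low level of a gene with close copies is uncertain.

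Gene levels changed in few of the 80 ribosomal protein genes that had enough counts to test, and mostly downward. For the mean of the clones, 2 were called higher and 12 lower, against 16.2% and 19.9% of the 15297 genes tested. The median log2 fold change was -0.02, against -0.01 over all genes and -0.05 over 11481 protein-coding genes, of which 1351 were higher and 2912 lower. Without wild-type replicate 1 the counts were 2 higher and 20 lower (17.5% and 18.7% of 15547 genes), with a median of -0.09. Without TMM scaling they were 6 and 6, the median of all genes being shifted by 0.08, so the balance of directions depends on the scaling. With the lines as replicates, 0 were higher and 1, Rps27l, was lower, from 5 lines in place of 20 libraries. By subunit, 1 of 43 large subunit genes was higher and 5 lower (median -0.01), and 1 of 30 small subunit genes higher and 4 lower (median -0.05). Of the 8 relatives, 5 were tested and 3 were lower. Of the 6 genes with -ps names, 2 were tested and 0 called. In the mean and in each clone alike, Rpl5 was higher (7.64% of all genes were), and Rps27l and Rpl7l1 were lower (5.82% were).

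Rps27l, a relative of Rps27 known as a target of p53, was the gene that fell most. It was at 254, 143, 150 and 171 CPM in wild type replicates 1 to 4, and at 171, 152, 165 and 184 in Btbd7 KO. It was at 97.8, 101, 105 and 108 CPM in clone 1, 120, 127, 100.3 and 101 in clone 2, and 109, 95.2, 115 and 118 in clone 3. Every clone library was below every control library. The mean difference was -0.73 ± 0.10 (adjusted p = 1.96e-06) and stood at -0.80, -0.68 and -0.71 in clones 1, 2 and 3, while Btbd7 KO was at -0.09 (adjusted p = 0.673). Leaving out wild-type replicate 1, it was -0.50 (adjusted p = 5.87e-08). With the lines as replicates it was -0.71 (adjusted p = 0.00731).

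Rpl7l1, a relative of Rpl7 with a role in large subunit assembly, was at 75.2, 68.5, 60.1 and 58.4 CPM in wild type and 54.6, 58.3, 56.3 and 59.5 in Btbd7 KO. It was at 45.5, 47.0, 51.4 and 49.4 CPM in clone 1, 47.6, 50.4, 49.6 and 50.4 in clone 2, and 49.6, 51.9, 42.7 and 50.8 in clone 3. The clones again lay below every control library. The difference was -0.42 ± 0.07 (adjusted p = 1.28e-05), and -0.33 without wild-type replicate 1. It was not called with the lines as replicates (-0.35, adjusted p = 0.129).

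Rpl22l1, the relative of Rpl22, fell by 0.41 ± 0.10 on the log2 scale for the mean (adjusted p = 0.00221), though clone 1 alone did not pass (adjusted p = 0.0506). It was at 35.1, 29.2, 25.6 and 31.4 CPM in wild type, 26.4 to 37.6 in Btbd7 KO, 19.7 to 29.0 in clone 1, 20.8 to 24.7 in clone 2 and 20.6 to 23.5 in clone 3. Clone 1 overlapped wild type and clones 2 and 3 did not. Leaving out that library of wild type, replicate 1, it was -0.31 (adjusted p = 0.012), and with the lines as replicates -0.43 (adjusted p = 0.0854).

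Of the other relatives, Rpl36al had few counts and was not called (0.54 ± 0.53, adjusted p = 0.455) and Rps27rt was not called (0.14, adjusted p = 0.26). Rpl3l and Rpl39l had 0 counts in every library, and Rpl10l had counts in 1 library only. Among their counterparts, the log2 fold change was -0.12 for Rpl3, 0.00 for Rpl10, -0.03 for Rpl22 and -0.04 for Rpl36a, none of them called, and Rps4x, whose relative Rps4l is not among the genes of this annotation, was at -0.10. Rpl7, Rpl39 and Rps27 were called lower, as given below.

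Rpl5, which with RPL11 and 5S ribosomal RNA binds the p53 inhibitor MDM2, was the gene that rose in every clone. It was at 123, 148, 159 and 139 CPM in wild type, and 123, 137, 142 and 152 in Btbd7 KO. It was at 204, 194, 199 and 183 CPM in clone 1, 166, 185, 161 and 197 in clone 2, and 162, 189, 184 and 170 in clone 3. All clone libraries lay above all control libraries. The difference was 0.36 ± 0.07 (adjusted p = 0.000117), with 0.46, 0.32 and 0.31 in the clones, -0.04 in Btbd7 KO and 0.32 without wild-type replicate 1 (adjusted p = 5.08e-05). With the lines as replicates the size was the same, 0.36, but it did not pass the test (adjusted p = 0.0876). Its partner Rpl11 was at 0.05 ± 0.12 (adjusted p = 0.769). Rps19, a small subunit protein mutated in Diamond-Blackfan anaemia, was at 0.14 ± 0.10 (adjusted p = 0.31).

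The 5 large subunit genes called lower were Rpl26 (-0.51 ± 0.13), whose protein also binds the p53 message, Rpl31 (-0.29 ± 0.07) and Rpl39 (-0.20 ± 0.07), both at the exit of the peptide tunnel, Rpl37a (-0.18 ± 0.05) and Rpl7 (-0.15 ± 0.04). The Rpl26 call rested on 1 library: wild type was at 582, 241, 264 and 308 CPM, and without replicate 1 the difference was -0.13 (adjusted p = 0.0908). Rpl39 (-0.16, adjusted p = 0.0719) and Rpl7 (-0.10, adjusted p = 0.051) were also no longer called without it. Rpl7 was at 0.02 in clone 1 and at -0.21 and -0.25 in clones 2 and 3. Rpl31 stayed called (-0.27, adjusted p = 0.00277). Small subunit genes called lower included Rps27 (-0.29 ± 0.08), Rps3a1 (-0.28 ± 0.09) and Rps3 (-0.21 ± 0.07), at the mRNA entry channel. When wild-type replicate 1 was left out, Rps27 (-0.13, adjusted p = 0.0949) and Rps3 (-0.04, adjusted p = 0.498) were not called, and Rps3a1, a protein at the mRNA exit, fell further (-0.40, adjusted p = 4.51e-07). In wild type Rps3a1 was at 266, 447, 420 and 385 CPM, with replicate 1 below the other 3. Rps27 was lower in Btbd7 KO as well (-0.50, adjusted p = 0.000701), and Rps21, the small subunit gene called higher (0.26 ± 0.08, adjusted p = 0.0139), was higher in Btbd7 KO as well (0.30, adjusted p = 0.0355). The Rps21 call in Btbd7 KO was lost without wild-type replicate 1 (0.20, adjusted p = 0.0694).

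**Figure D4:**
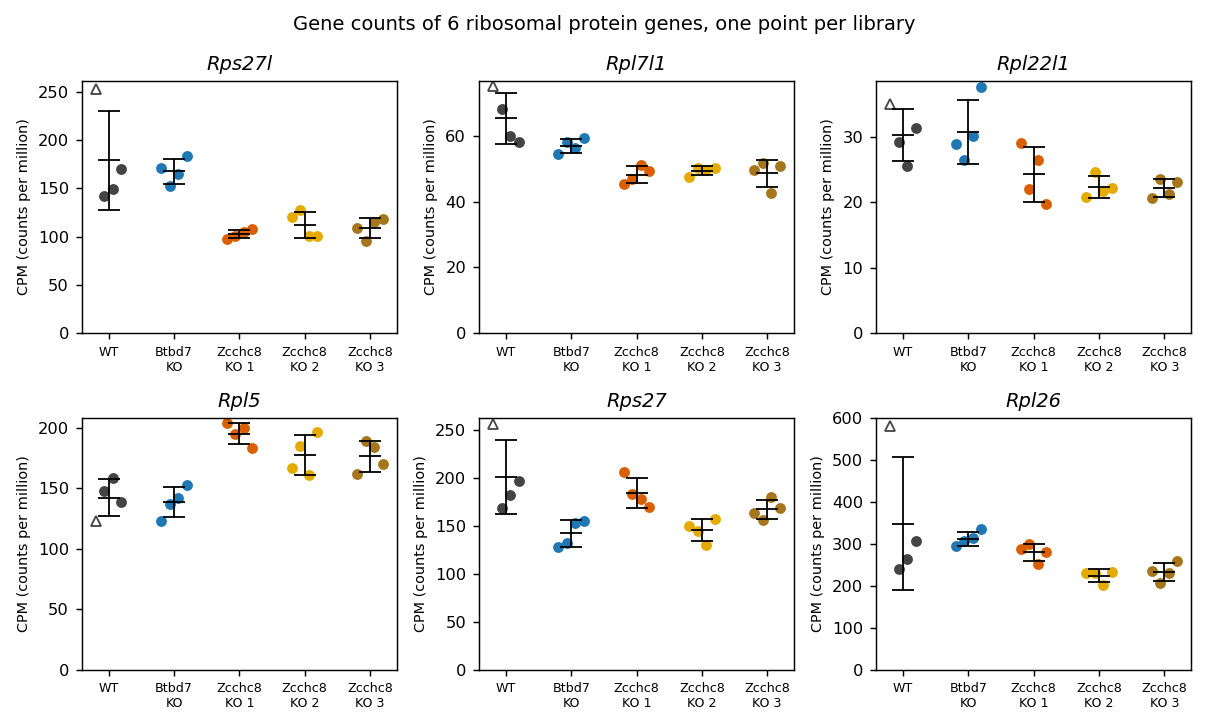
Gene level (CPM) of Rps27l, Rpl7l1, Rpl22l1, Rpl5, Rps27 and Rpl26 in each of the 20 libraries, by group, with bars for the mean ± SD and an open triangle for wild-type replicate 1. Every Zcchc8 KO library lies below all controls for Rps27l and Rpl7l1 and above them for Rpl5, and the triangle sets the wild-type mean of Rpl26.

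Called genes were counted in each clone. Clone 1 had 7 ribosomal protein genes higher and 2 lower (16.7% and 19.1% of all genes), clone 2 had 1 and 19 (16.1% and 16.2%), and clone 3 had 1 and 11 (14.0% and 15.3%). Leaving out wild-type replicate 1, these were 8 and 7 in clone 1 (19.3% and 19.4%), 2 and 28 in clone 2 (18.4% and 15.5%), and 1 and 19 in clone 3 (15.6% and 16.1%). The scaling and single libraries moved some of these counts: clone 1 had 13 higher without TMM, 12 with DESeq2 and 17 without wild-type replicate 2, and clone 2 had 11 lower and clone 3 7 lower without TMM. The test that the clones are equal called 18 of the 80, or 22.5%, against 28.5% of all genes, and 32 without wild-type replicate 1 (38.6% of all genes).

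The Btbd7 KO had 6 ribosomal protein genes higher and 2 lower (7.73% and 8.0% of all genes). With that library left out, 9 were higher and 5 lower (8.93% and 8.23%). The higher ones were Rpl27 (0.71 ± 0.13), Rps7 (0.69 ± 0.13), Rps29 (0.49 ± 0.15), Rpl41 (0.44 ± 0.12), Rps21 and Rpl23a (0.28 ± 0.09), of which Rps21 was not called without wild-type replicate 1, and the lower ones Rps27 and Rpl39 (-0.31 ± 0.08). Rpl27 was at 31.9, 62.5, 65.1 and 59.8 CPM in wild type and 95.1, 90.1, 86.9 and 85.9 in Btbd7 KO, with no overlap, and without replicate 1 the difference was 0.53 (adjusted p = 8.27e-07). Set against Btbd7 KO in place of wild type, the mean of the clones had 2 genes higher and 19 lower (18.8% and 22.2%).

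Several of these genes lay on chromosomes whose other genes were shifted the same way in the same line. In clone 1 the 914 other protein-coding genes of chromosome 2 had a median log2 fold change of 0.26, and the 3 genes Rpl7a (0.46 ± 0.11), Rpl35 (0.44 ± 0.08) and Rps21 (0.50 ± 0.10), all on it, were called higher. Rpl12, also there, was at 0.39. Rpl7a was at 274, 246, 275 and 253 CPM in clone 1, against 136, 237, 201 and 191 in wild type and 148 to 197 in clone 2. Clone 1 was above every library of these 2 groups.

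In clone 2 the 300 other genes of chromosome 18 had a median of -0.30. On it, Rps14, a protein of the small subunit platform, was at -0.61 ± 0.11 (adjusted p = 7.4e-05) and Rpl17, at the tunnel exit, at -0.59 ± 0.08. Rps14 was at 139, 158, 177 and 166 CPM in clone 2, against 258 to 298 in clone 1, 240 to 256 in clone 3 and 174, 290, 288 and 227 in wild type. Clone 2 overlapped only wild-type replicate 1, and without that library the difference was -0.71 (adjusted p = 1.19e-10). The 3 genes Rps3a1, Rpl22l1 and Rps27, lower in clone 2, lay on chromosome 3, where the median was -0.33. That shift was not particular to clone 2: the median was -0.34 in clone 1, -0.19 in clone 3 and -0.21 in Btbd7 KO. For the mean of the clones it was -0.30, and these 3 genes were called lower there too. In clone 3, Rpl30 (-0.36 ± 0.09) lay on chromosome 15, where 443 other genes had a median of -0.29 and 4 of 4 ribosomal protein genes were below 0. In Btbd7 KO, Rps7 and Rps29 lay on chromosome 12 (median 0.32 over 402 genes), and Rpl27 and Rpl23a on chromosome 11 (0.23 over 946).

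Counted over all 4 lines against wild type, the chromosome median passed 0.2 in size in 10 cases, and 31 of the 34 ribosomal protein values there (91.2%) had the sign of the median. In the other cases 168 of 286 (58.7%) did. Without wild-type replicate 1 the shares were 29 of 30 (96.7%) and 158 of 290 (54.5%). The comparisons share the wild-type libraries, the cut at 0.2 was chosen after the values were seen, and no test was made. The copy number of the chromosomes was not measured. For the 3 genes called in every clone, the median of the chromosome was within 0.2 of 0 in each clone.

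**Figure D5:**
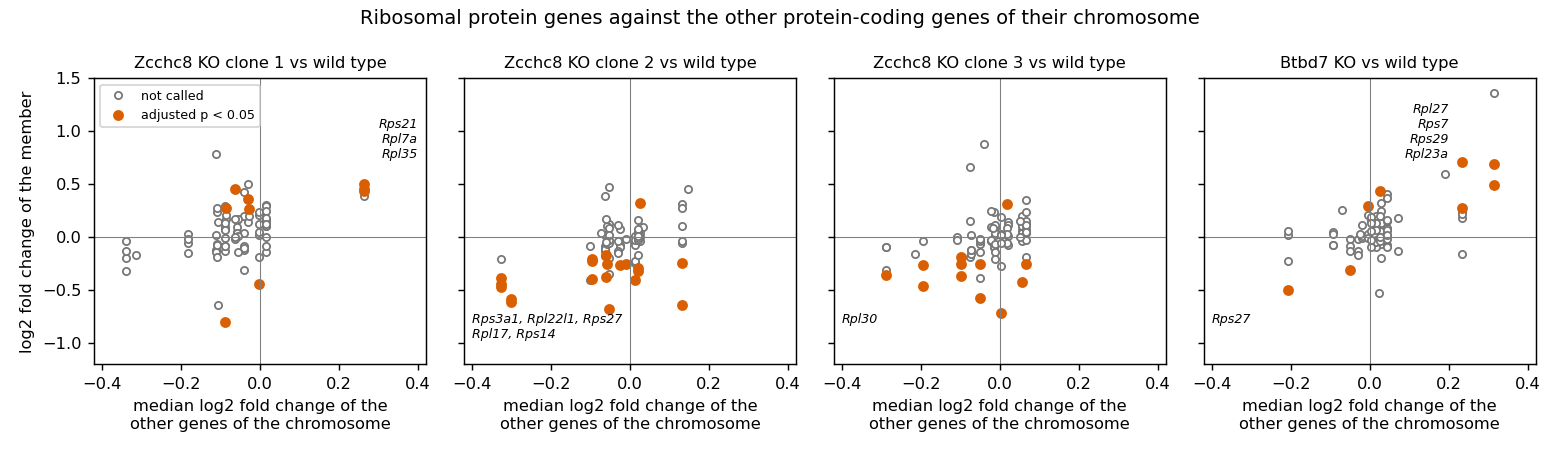
Log2 fold change of each tested ribosomal protein gene (y axis) against the median log2 fold change of the other protein-coding genes of its chromosome (x axis), for the 3 Zcchc8 KO clones and Btbd7 KO against wild type. Filled points are called, and those on chromosomes past 0.2 in size are named: Rps21, Rpl7a and Rpl35 stand at the right in clone 1, and Rps14 and Rpl17 at the lower left in clone 2.

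Of the 10 S6 kinase genes, 9 were tested and 3 called lower for the mean of the clones, where 19.9% of all genes were. Rps6kb1, the kinase that phosphorylates RPS6 downstream of mTOR, was at -0.14 (adjusted p = 0.0494), but at -0.34 in clone 1, 0.21 in clone 2 and -0.29 in clone 3. It was not called without wild-type replicate 1 (-0.10, adjusted p = 0.16). Rps6ka3, an ERK-activated kinase, was at -0.25 (adjusted p = 0.00621) and at -0.41 in Btbd7 KO. Without wild-type replicate 1 it was at -0.11 (adjusted p = 0.116), and at -0.29 in Btbd7 KO. Rps6ka6 had the widest spread: 2.93, 2.95, 2.99 and 5.63 CPM in wild type, 0 to 0.465 in Btbd7 KO, 0.382 to 1.16 in clone 1, 0.276 to 1.10 in clone 2 and 19.8 to 24.1 in clone 3. It was lower than wild type in clones 1 and 2 (-2.49 and -2.42) and higher in clone 3 (2.54), so the mean of -0.79 (adjusted p = 0.0474), or -0.87 without wild-type replicate 1, describes none of them. Leaving out that library, Rps6ka2 (-0.38) and Rps6ka4 (-0.34) were called lower in place of Rps6kb1 and Rps6ka3. All 6 kinase PROMPT regions tested were higher for the mean, where 39.2% of all regions were, from 0.77 for Rps6kb1 to 3.54 for Rps6ka2. Rps6ka1 held 0 counts in wild type and was at least 6.0-fold higher than the floor. Rps19bp1 was at 0.01 in the gene table (adjusted p = 0.967).

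Other genes of the ribosome and its assembly were read from lists, which were chosen with earlier results of these data known. Of the 7 cytosolic ribosome genes with other names (among them Rplp0, Rplp1, Rplp2, Rpsa, Fau and Rack1), 1 was higher for the mean of the clones, Rack1 (0.18, adjusted p = 0.0297), and 0 were lower. With wild-type replicate 1 left out, Rack1 was not called and Rplp1 was lower. Of 50 ribosome biogenesis factors, 27 were lower and 3 higher. Their median was -0.27, against -0.01 over all genes and -0.05 over protein-coding genes. With it left out these were 36 lower and 0 higher. Among the lower ones were Nmd3, which exports the large subunit (-0.60), Gar1 of the pseudouridylation complex (-0.57), the nucleolar factor Heatr1 (-0.50) and nucleolin, Ncl (-0.31). In Btbd7 KO 11 of the 50 were higher and 0 lower, with a median of 0.18, where 7.73% of all genes were higher and 8.0% lower, and 10 were higher without wild-type replicate 1.

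Of 14 genes of RNA polymerase I and its factors, 4 were lower and 0 higher, among them Polr1e (-0.68) and the initiation factor Rrn3 (-0.30). With wild-type replicate 1 left out, 6 were lower. Of 15 translation factors whose messages carry the TOP motif, 4 were lower and 1 higher. Elongation factor Eef2 was the one higher (0.21), and Eif3e (-0.36) and the poly(A) binding protein Pabpc1 (-0.29) were among the lower. Without wild-type replicate 1, 8 of the 15 were lower and 0 higher. Of 27 other initiation factors, 15 were lower and 0 higher, with a median of -0.18, among them the cap-binding protein Eif4e (-0.69) and Eif5a (-0.45). Of 77 mitochondrial ribosomal protein genes tested, 21 were lower and 3 higher (median -0.09). Beside these shares, 19.9% of all genes were lower, and 2912 of the 11481 protein-coding genes tested (25.4%). With all libraries, the shares lower of the polymerase I, TOP and mitochondrial lists were near that of protein-coding genes. The epithelial markers moved downward in the same libraries, as given above, and their part in these counts was not tested.

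The snoRNAs inside the ribosomal protein genes were read as a separate readout of the same loci. GENCODE places 54 snoRNA genes on the sense strand inside 28 ribosomal protein genes, all of them core, so 38.4% of core genes hold one against 1.93% of the protein-coding genes tested. Of the 54, 21 had enough counts, 8 were higher for the mean of the clones and 0 lower, with a median of 1.15. Over all 122 snoRNA genes tested, 51 were higher (41.8%) and 4 lower, with a median of 1.00. Without wild-type replicate 1, 10 of the 21 were higher and 0 lower. Snora21 in Rpl23, an RNA that guides pseudouridylation, was at 2.99 to 7.41 CPM in wild type and 5.04 to 7.94 in Btbd7 KO. It was at 47.3 to 55.3 CPM in clone 1, 34.7 to 38.4 in clone 2 and 27.9 to 32.0 in clone 3, with no overlap between clones and controls (2.92 ± 0.15, adjusted p = 1.2e-13). Its host Rpl23 was not among the genes called for the mean. Both snoRNAs of Rps3a1, a gene called lower, were called higher. Rnu73b was at 1.74 and Snord73a at 4.13, the latter from 0, 3, 0 and 5 counts in wild type. The other 5 called higher were Gm26387 (2.76) and Gm22270 (1.55) in Rpl5, AF357399 in Rps16 (2.65), Snord83b in Rpl3 (2.18) and Snora69 in Rpl39 (1.80). The snoRNA counts are of reads from libraries not made for short RNA, and reads of the host's intron can add to them, which was not tested.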

How the data were processed

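Total RNA from SIMS cells was made into stranded total RNA libraries, per the labels' protocols. The authors' deposited values were raw counts of reads per gene (20 libraries) and per PROMPT region (19), and the submitters' processing notes name STAR 2.7.3a and FastQC. The counter, strand setting, genome build and extent of a PROMPT region are not given in the sources used here. Positions came from GENCODE M21 (GRCm38), where 97 of 98 members matched with version.

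The test was the quasi-likelihood F test of edgeR 4.0.16 (R 4.3.3), 1 fit per table over 5 groups, after filterByExpr by group, with Benjamini-Hochberg adjustment. TMM factors and library sizes of the gene table served both tables. The ratio log2((PROMPT + 0.5)/(gene + 0.5)) was tested with limma 3.58.1 (trend). The scripts were tested on simulated data. Depth was 6833258 to 17771804 counts per library. In every group the replicates varied beyond counting noise (lowest chi-square/df 2.84). The chi-square/df was 37.88 to 76.13 for pairs with wild-type replicate 1 and at most 17.56 for all other pairs.

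Members and lists were chosen with earlier results of these data known. Named genes were those with at least 50 counts called in each clone and for the mean (5 largest, 5 lowest for genes; 5 and 3 for PROMPTs), the 4 highest and the lowest per length, relatives and their counterparts, Rps19, Rpl5, Rpl11, called kinases, and others chosen after their values were seen. Alternatives were DESeq2 1.42.0, other filters and scalings, equal depth, only the groups compared, a replicate block, other controls, cell lines as replicates, and single libraries left out. Some genes are not reported here by name.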

Additional observations from a re-analysis of the deposited data

Results flagged for a closer look

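In 216 groups of 4 libraries (the 46 named members), 20 libraries stood further from the others of their group than Dixon's 95% limit allows, and chance alone marks about 1 in 20 groups. Wild-type replicate 1 accounts for 3 of them: Rpl27 at 31.9 CPM against 59.8 to 65.1 in the other libraries, Rps3 at 775 against 514 to 554, and Rps10 at 3.64 against 5.5 to 5.81. Wild-type replicate 4 was at 5.63 CPM for Rps6ka6. In Btbd7 KO, replicate 4 was at 71.0 CPM for Rpl22 and 107 for Rpl30, and replicate 2 at 0.465 for Rps6ka6, the others being at 0. In clone 1, replicate 1 was at 378 CPM for Rps4x, and replicate 4 at 143 for Rpl37 and 0.255 for Rpl10l. In clone 2, replicate 1 was at 237 CPM for Rps3a1 and 86.3 for Rpl12, and replicate 3 at 106 for Rps21, 202 for Rpl26 and 96.2 for Rpl37a. In clone 3, replicate 2 was at 355 CPM for Rps3a1, 39.2 for Rpl11, 367 for Rpl8 and 4.64 for Rps10, and replicate 3 at 185 for Rpl41.

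The difference from wild type was unequal among the 3 clones for 15 named genes by edgeR's test with 2 degrees of freedom. The adjusted p was 5.93e-11 for Rps6ka6, 6.18e-08 for Rpl17, 7.39e-07 for Rps6kb1, 6.6e-06 for Rps14, 7.57e-06 for Rpl35, 0.000181 for Rpl7a, 0.00043 for Rpl7, 0.00138 for Rps21 and 0.00195 for Rps6ka3. It was 0.0103 for Rpl30, 0.0109 for Rpl39, 0.0313 for Rps27, 0.0407 for Rpl31, 0.0425 for Rps29 and 0.0484 for Rpl23a. In the PROMPT table it was 1.35e-05 for Rpl35, 0.000735 for Rpl3 and 0.000751 for Rps6ka2.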

How the results depend on the processing

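The counts of genes called depended on the processing more than the PROMPT counts did. For the mean of the clones, the number higher was 4 with DESeq2, 0 with cell lines as replicates (counts summed per line, wild type and Btbd7 KO against the 3 clones), 6 without TMM and 8 without a filter. The number lower was 1 with cell lines as replicates, 6 without TMM and 19 with Btbd7 KO as control. In clone 1 the number higher was 12 with DESeq2, 11 at equal depth, 13 without TMM and 16 without a filter, and the number lower was 4 without a filter and 4 with the kinases and Rps19bp1 counted in. In clone 2 the number higher was 2 without TMM, 3 without a filter and 2 with the kinases, and the number lower 11 without TMM and 12 in a fit of only the groups compared. In clone 3 the number higher was 3 with DESeq2, 3 at equal depth, 3 without TMM, 4 without a filter and 2 with the kinases, and the number lower 7 without TMM and 5 with only the groups compared. In Btbd7 KO the number higher was 18 without a filter and 2 with only the groups compared, and the number lower 1 with only the groups compared and 4 with the kinases. The number that differed between clones was 32 without a filter and 33 in a fit of the 3 clones. PROMPT regions lower for the mean were 0 without TMM, 0 without a filter, 9 when scaled within the PROMPT table and 3 with Btbd7 KO as control. The causes were not tested.

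Same-numbered libraries did not pair: over 40 pairs their deviations correlated at -0.089 to 0.151, with 2 above 0.1. The replicate number as a block gave 2 genes higher in clone 3 and 2 PROMPT regions lower for the mean, and moved no other count of calls by over 1.5 times.

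With 1 library left out at a time, genes higher for the mean numbered 2 to 7 and lower 8 to 20. The ranges were 6 to 17 and 2 to 7 in clone 1, 1 to 2 and 15 to 28 in clone 2, 1 to 3 and 7 to 19 in clone 3, and 3 to 13 and 1 to 5 in Btbd7 KO. Genes that differed between clones numbered 13 to 32. PROMPT regions numbered 28 to 32 higher and 0 to 2 lower for the mean, and 1 to 2 and 0 to 1 in Btbd7 KO, and ratios higher 31 to 36. The median gene change ran from -0.087 to 0.04, and the difference in the share of counts from -0.0206 to 0.0958 percentage points. Wild-type replicate 1 gave 20 lower for the mean, 7 lower in clone 1, 19 lower in clone 3, 5 lower in Btbd7 KO and 32 that differed between clones. Wild-type replicate 2 gave 7 higher for the mean, 17 in clone 1, 3 in clone 3 and 13 in Btbd7 KO. Wild-type replicate 3 gave 4 higher for the mean. Wild-type replicate 4 and Btbd7 KO replicates 3 and 4 each gave 3 higher in Btbd7 KO, Btbd7 KO replicate 2 gave 1 lower there, and clone 3 replicate 1 gave 7 lower in clone 3.

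Single genes reversed mostly with Btbd7 KO as control: Rpl39 (0.11), Rps27 (0.22), Rps6ka3 (0.17), Rps6ka6 (3.87), Rps21 (-0.042), Rps7 (-0.48), Rpl27 (-0.65) and Rpl41 (-0.34). Rps6ka6 also reversed with cell lines as replicates (1.91). Of the other values of named genes under these settings, 509 stayed on their side of the threshold, 48 lost the call and 16 gained it. PROMPT regions with fewer than 3 counts per wild-type library give only lower bounds. The standard errors cover the spread between libraries within a group, not that between lines.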
